A study of Mus musculus with 18 samples.

Results

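Secretory lineage transcription factors of the mouse small intestine were followed as a set of 9 genes, *Atoh1*, *Gfi1*, *Spdef*, *Neurog3*, *Neurod1*, *Insm1*, *Rfx6*, *Pax4* and *Foxa2*, taken by symbol from a list of factors of secretory, goblet, Paneth and enteroendocrine fate. All 9 had values at every time point, out of 18838 genes. Polyadenylated RNA was sequenced in bulk from the duodenum of 3 WT (*Mtgr1*+/+) and 3 *Mtgr1* null (*Mtgr1*-/-) mice, and each mouse gave 3 libraries, so that 6 groups held 3 libraries each and 18 libraries in all. The first library came from crypts as isolated (day 0), and the others from enteroids, small intestinal organoids grown from crypts of the same mouse, at 24 h (day 1) and 72 h (day 3) after plating. Mice were age-matched littermates of both sexes, with an age of 8 to 12 weeks given for enteroid cultures, and the deletion was in every tissue, not only in the epithelium. Both genotypes were cultured alike in Matrigel under medium with EGF, Noggin and R-spondin. MTGR1 is a transcriptional co-repressor that scaffolds histone deacetylases and DNA-binding factors, and the comparison of genotypes addressed which genes depend on it before and after plating.

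In the crypt, a progenitor that escapes Notch signalling turns on *Atoh1*, a basic helix-loop-helix factor without which no goblet, Paneth or enteroendocrine cells form, while its neighbours keep *Hes1* and become absorptive enterocytes. Below *Atoh1*, *Gfi1* and *Spdef* act in the goblet and Paneth branches, and *Neurog3* opens the enteroendocrine branch. *Neurod1*, *Insm1*, *Rfx6* and *Pax4* follow *Neurog3* as hormone-producing cells mature, and *Foxa2* is a forkhead factor of gut endoderm that is expressed more broadly and contributes to enteroendocrine and mucus gene expression.

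The DNA just before the start of 4 of these genes is shown, because basic helix-loop-helix factors such as ATOH1, NEUROG3 and NEUROD1 bind E-boxes (CANNTG), HES factors bind N-boxes (CACNAG) and RBPJ, the DNA-binding partner of Notch, binds TGGGAA, and because these genes moved together. RefSeq (GRCm38.p6) gave windows for 7 of the 9 genes, with none for *Insm1* and *Pax4*. Each line holds the 250 bases before the start on the gene's own strand, 5′ to 3′, with matches to the 3 motifs on either strand in capitals.
*Atoh1* (chr6:64728875-64729124, + strand): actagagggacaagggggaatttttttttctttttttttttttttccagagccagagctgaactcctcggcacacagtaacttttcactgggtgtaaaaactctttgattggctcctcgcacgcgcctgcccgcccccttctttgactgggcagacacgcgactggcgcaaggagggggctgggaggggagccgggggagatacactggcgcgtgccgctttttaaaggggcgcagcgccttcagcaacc
*Spdef* (chr17:27728952-27729201, - strand): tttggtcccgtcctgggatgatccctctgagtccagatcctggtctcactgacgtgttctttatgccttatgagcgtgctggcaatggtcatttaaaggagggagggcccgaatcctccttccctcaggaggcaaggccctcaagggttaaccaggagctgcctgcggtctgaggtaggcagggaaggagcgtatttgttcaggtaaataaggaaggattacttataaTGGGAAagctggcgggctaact
*Neurog3* (chr10:62132840-62133089, + strand): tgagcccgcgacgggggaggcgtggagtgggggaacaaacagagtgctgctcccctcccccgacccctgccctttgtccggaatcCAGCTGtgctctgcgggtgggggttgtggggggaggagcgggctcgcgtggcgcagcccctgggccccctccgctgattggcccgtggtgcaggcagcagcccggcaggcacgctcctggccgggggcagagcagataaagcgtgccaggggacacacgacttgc
*Neurod1* (chr2:79456637-79456886, - strand): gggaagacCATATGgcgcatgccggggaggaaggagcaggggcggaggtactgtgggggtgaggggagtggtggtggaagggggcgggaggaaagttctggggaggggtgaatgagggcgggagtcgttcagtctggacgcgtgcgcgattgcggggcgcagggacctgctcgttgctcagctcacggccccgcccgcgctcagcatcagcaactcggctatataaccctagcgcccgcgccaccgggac
*Neurog3* and *Neurod1* each held 1 E-box in this window, *Spdef* held 1 RBPJ motif, and the *Atoh1* window held none of the 3. Over the 10 windows of the 7 genes, 5 held an E-box, 2 an N-box and 1 an RBPJ motif. Of all 32851 windows of this length in the table, 66.2% held an E-box, 36.7% an N-box and 21.6% an RBPJ motif, so these matches are a description of the letters only.

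Values are the authors' normalized counts per gene, comparable within a time point, and reads were recovered from their steps, with 22035316 to 29661084 reads per library (median 26258539). *Mtgr1* is listed as *Cbfa2t2*, and its normalized count was 577 ± 48.3 in WT and 566 ± 119 in *Mtgr1* null libraries in crypts, 752 ± 39.3 against 986 ± 187 on day 1 and 842 ± 59.4 against 878.0 ± 106 on day 3 (SD, n = 3 each). It was not lower in either culture or crypts (limma log2 difference -0.047, 0.37 and 0.056, adjusted p = 0.917, 0.0557 and 0.686), and since which exons the allele lacks is not given in the sources used here, its total neither bears out nor contradicts the labels. The libraries are therefore called by label, as libraries labelled null. For each time point, log2(normalized count + 1) entered a limma fit that kept genes whose mean reached 10, and a gene was called at an adjusted p below 0.05. With 3 mice against 3, an exact permutation test of 1 gene cannot give a p below 0.1, so the p-values are those of the model fitted across all genes and measure the spread between mice. Crypt libraries also held immune cell RNA: the summed level of 9 immune markers was 82.8 to 819 CPM (reads per 1000000 recovered reads of the library) in WT crypts and 23.0 to 93.5 in crypts labelled null, with 819 in WT mouse 3 alone. Stromal markers summed to at most 11.7 CPM in any library and neural markers to at most 2.62, while 7 epithelial markers summed to 6050 or more everywhere.

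All 9 factors were lower in libraries labelled null than in WT at all 3 time points, with every library labelled null below every WT library of its time point. In crypts, 7 of the 8 factors tested were called lower, against 3.15% of all 12980 genes tested, and the exception was *Foxa2*. On day 1, 8 of 8 were called, against 28.9% of 12587 genes, and on day 3, 9 of 9, against 29.1% of 12782. No factor was called higher by limma, edgeR or DESeq2 or at an unadjusted p of 0.05, where 1.58%, 30% and 29.9% of all genes were called higher at the 3 times. *Pax4* lay under the minimum mean in crypts and on day 1 and was not tested there. Groups without overlap, null below WT, were found in 8 of 8 tested factors in crypts, 8 of 8 on day 1 and 9 of 9 on day 3, where the background over all genes tested was 13.5%, 33.9% and 34.2%. Of the factors tested, 4 in crypts, 5 on day 1 and 6 on day 3 had a mean below 10 in libraries labelled null and passed the filter through the WT libraries alone, so the counts describe the set and do not test it. The median log2 difference of the 9 factors was -4.66 in crypts, -5.10 on day 1 and -4.43 on day 3, beside medians over all genes tested of 0.0076, -0.0080 and 0.0026. These medians stayed the same with *Pax4* set to its lower bound where no read was found. In bulk RNA, fewer cells of a type and less RNA per cell cannot be told apart, which holds for every difference given here.

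**Figure D1:**
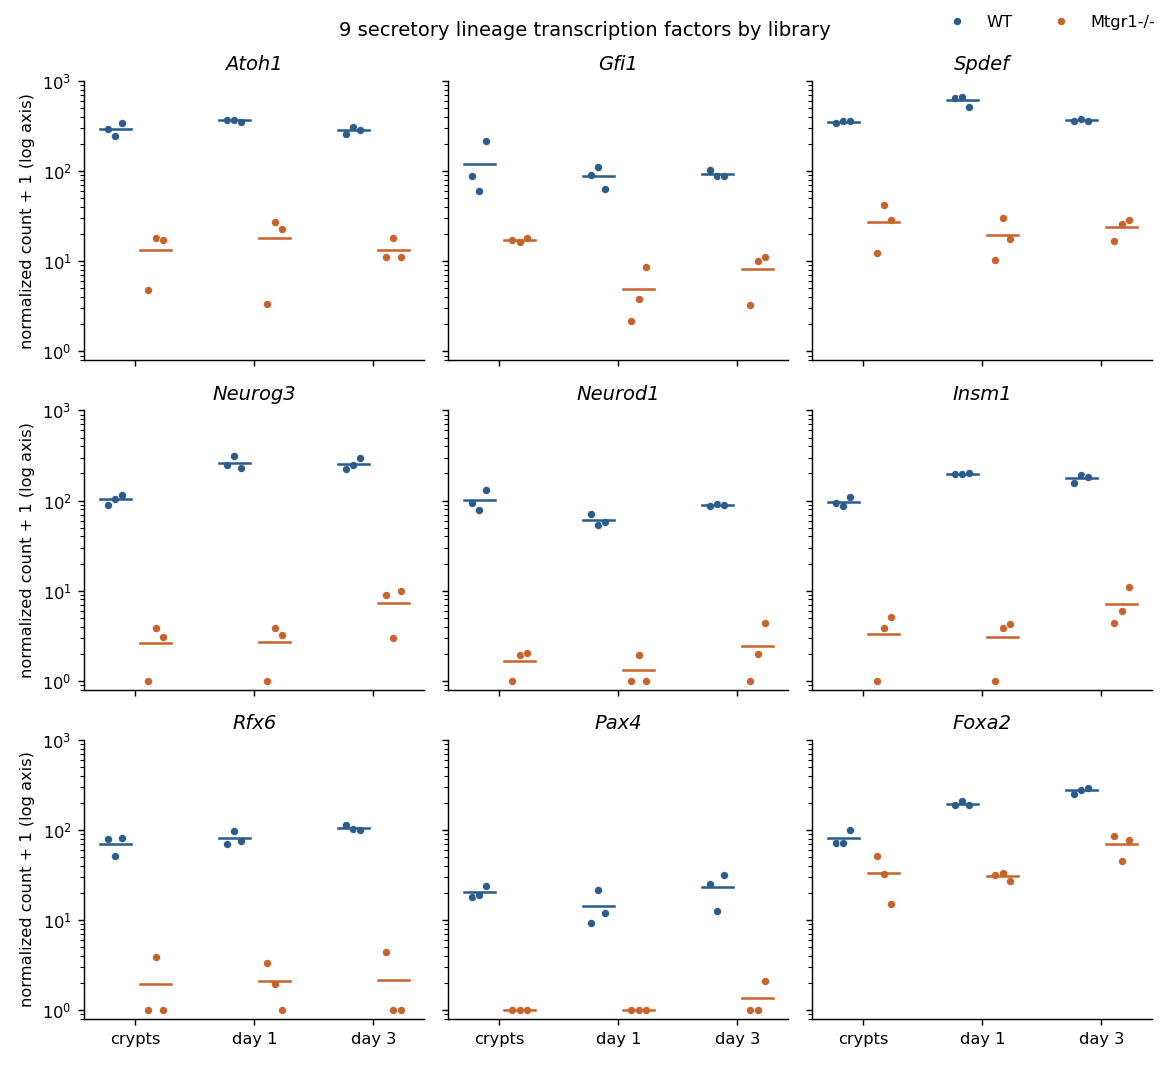
Normalized count plus 1 (log axis) of each factor in every library, by time point, with WT in blue, libraries labelled null (*Mtgr1*-/-) in orange and a line at the mean of 3 mice. A library without a read lies at 1, and in all 27 pairs of groups the orange points sit below the blue ones, with *Foxa2* the closest.

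*Atoh1* (ENSMUSG00000073043.5, GRCm38 chromosome 6, 64729125 to 64731245, 1 exon) was low in every library labelled null but was never without reads. WT mice 1 to 3 had normalized counts of 291, 243 and 337 in crypts, against 3.77, 17.1 and 16.3 in the mice labelled null. The lowest WT library was 14.2 times the highest of the other group. Means were 290.4 ± 47.4 and 12.4 ± 7.47 (SD, n = 3), so that 4.27% of the WT level was left, with a log2 difference of -4.66 (SE 0.53, adjusted p = 0.00568). On day 1, WT libraries were close to each other at 373, 370 and 354, while those labelled null spread from 2.33 in mouse 1 to 26.6 and 22.1 in mice 2 and 3. The log2 difference was -4.83 (SE 0.72, adjusted p = 0.00113). On day 3, counts were 257, 306 and 284 against 10.2, 16.9 and 10.1, and the difference of -4.43 had the smallest error of the 3 (SE 0.24, adjusted p = 1.05e-05). Pooled over mice, WT held 842 reads in crypts against 38 in libraries labelled null, a 23.5-fold difference with a counting interval of 17.0 to 33.4 (exact, 95%, covering counting error only). The pooled differences on day 1 and day 3 were 20.6-fold and 22.4-fold.

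*Gfi1* (ENSMUSG00000029275.18, chromosome 5, 107716657 to 107726036), a zinc-finger repressor downstream of *Atoh1* in goblet and Paneth precursors that is also expressed in blood cells, kept 13.5% of its WT mean in crypts and less in culture. Its crypt values were 87.2, 59.4 and 213 in WT against 16.0, 15.2 and 17.3, a log2 difference of -2.61 (SE 0.48, adjusted p = 0.0296). WT mouse 3 stood above the other WT crypts, and it was also the library with the immune marker sum of 819 CPM, against 96.9 and 82.8 in WT mice 1 and 2. The part of immune RNA in this value was not tested, and without WT mouse 3 the difference was -2.09 (adjusted p = 0.0209). The call in crypts was lost on leaving out WT mouse 1 or any 1 of the 3 libraries labelled null (adjusted p = 0.067 to 0.105). On day 1, *Gfi1* was 89.6, 109 and 62.9 in WT against 1.17, 2.84 and 7.72, which left 4.48% of the WT mean (log2 difference -4.37, SE 0.54, adjusted p = 0.000548). On day 3, it was 103, 86.4 and 88.1 against 2.28, 8.95 and 10.1 (log2 difference -3.71, SE 0.47, adjusted p = 0.000389). In culture the immune marker sum was at most 14.7 CPM in any library. *Gfi1* shares 101 exon bases with a transcript on the opposite strand, and the kit marked the strand of each read, but whether the counting used it is not given in the sources used here.

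*Spdef* (ENSMUSG00000024215.14, chromosome 17, 27714352 to 27728955), an ETS factor that drives goblet and Paneth maturation, had the highest mean WT level per kb of exon in the set at every time point. Crypt values were 342, 361 and 357 in WT and 11.3, 40.9 and 27.4 in libraries labelled null, with a log2 difference of -3.86 (SE 0.43, adjusted p = 0.00542). By day 1, WT libraries held 647, 666 and 517, those labelled null held 9.33, 29.4 and 16.54, and 3.02% of the WT mean was left (log2 difference -5.10, SE 0.37, adjusted p = 9.15e-05). Day 3 values were 362, 379 and 357 against 15.9, 24.9 and 28.1 (log2 difference -3.98, SE 0.22, adjusted p = 1.12e-05). Mouse 1 was the lowest of the 3 mice labelled null at each time point, and the WT libraries of crypts and day 3 differed little among themselves.

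*Neurog3* (ENSMUSG00000044312.4, chromosome 10, 62133090 to 62134763, 1 exon), the factor that commits a progenitor to the enteroendocrine fate, was close to absent in libraries labelled null. Its crypt counts were 89.1, 102 and 115 in WT against 0, 2.85 and 2.03, where mouse 1 had no read. This was a pooled total of 296 reads against 5, 62.7-fold, with a counting interval from 26.6 to 195. The log2 difference on the fitted scale, which understates folds of such low counts, was -5.50 (SE 0.60, adjusted p = 0.00471). Day 1 WT libraries reached 245, 313 and 231, while those labelled null stayed at 0, 2.84 and 2.21 (log2 difference -6.83, SE 0.52, adjusted p = 0.000106). This was the largest fitted difference of the 9 factors over the 3 time points. At day 3, *Neurog3* stood at 222, 247 and 294 in WT against 7.96, 1.99 and 8.98, a difference of -5.30 (SE 0.45, adjusted p = 5.91e-05). The 17 pooled reads of day 3 compare with 5 in crypts and 5 on day 1, and the day 3 range overlapped those of both earlier times. *Neurog3* shares 273 exon bases with *Fam241b* on the opposite strand.

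*Neurod1* (ENSMUSG00000034701.9, chromosome 2, 79452521 to 79456751), a direct target of NEUROG3 that promotes hormone gene expression and cell cycle exit, kept 0.66% of its WT mean in crypts, 0.53% on day 1 and 1.66% on day 3. The crypt values were 92.0, 77.2 and 129 against 0, 0.95 and 1.02, which rests on 286 reads against 2 (ratio 152, counting interval 41.6 to 1257). The log2 difference was -5.96 (SE 0.51, adjusted p = 0.00178), the largest of the set in crypts. In day 1 enteroids, counts were 69.5, 53.1 and 56.2 against 0, 0.95 and 0, so that a single read was found in 3 libraries labelled null (log2 difference -5.59, SE 0.48, adjusted p = 0.000151). In day 3 enteroids, WT values lay at 85.2, 90.0 and 88.1 against 0, 0.99 and 3.37 (log2 difference -5.43, SE 0.53, adjusted p = 0.000119). Of its exon bases, 201 are shared with *Cerkl* on the same strand, whose reads cannot be told apart there, and 154 with a transcript on the opposite strand.

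*Insm1* (ENSMUSG00000068154.5, chromosome 2, 146221921 to 146225020, 1 exon), a zinc-finger factor of endocrine progenitors, followed *Neurog3* in its values. In crypts, counts of 92.0, 85.1 and 108 in WT stood against 0, 2.85 and 4.07 (log2 difference -5.15, SE 0.67, adjusted p = 0.00853). This call did not hold without WT mouse 1 (adjusted p = 0.0608) or WT mouse 2 (0.0517), nor with a pseudocount of 0.1 (0.0549). On day 1, the WT libraries were almost equal at 197, 194 and 199 (an SD of 2.94), against 0, 2.84 and 3.31 (log2 difference -6.28, SE 0.56, adjusted p = 0.000179). On day 3, 156, 189 and 180.1 in WT stood against 3.41, 4.97 and 10.1 (log2 difference -4.72, SE 0.35, adjusted p = 3.44e-05).

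*Rfx6* (ENSMUSG00000019900.19, chromosome 10, 51677756 to 51730432), a winged-helix factor needed for hormone production in gut and islet endocrine cells, was 77.6, 50.5 and 80.6 in WT crypts against 0, 2.85 and 0. The log2 difference was -5.46 (SE 0.69, adjusted p = 0.0078, and 0.0653 without WT mouse 1). WT levels were 69.5, 96.8 and 73.8 on day 1 and 114, 101 and 99.7 on day 3, and libraries labelled null held 2.33, 0.95 and 0 and then 3.41, 0 and 0. Exactly 3 reads were found in the libraries labelled null at each time point, against 202, 257 and 343 in WT, for ratios of 71.4, 74.4 and 97.0 with counting intervals of 24.1 to 349, 25.2 to 363 and 32.9 to 473. The fitted differences were -5.43 (adjusted p = 0.000216) on day 1 and -6.01 (adjusted p = 0.000123) on day 3.

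*Pax4* (ENSMUSG00000029706.15, chromosome 6, 28442334 to 28449353), a paired-homeodomain factor of early endocrine subtype choice, was the lowest of the set in WT. It was 17.2, 17.8 and 23.0 in WT crypts, 8.23, 20.8 and 10.9 in WT day 1 enteroids, and 24.2, 11.6 and 31.0 in WT day 3 enteroids. In the 9 libraries labelled null it had 1 read in all, in mouse 3 on day 3, against 170 reads in the 9 WT libraries. With a floor of 3 reads over the group, *Pax4* was at least 19.8-fold lower in crypts (56 reads against 0) and at least 12.2-fold lower on day 1 (42 against 0). On day 3, where it was tested, the log2 difference was -4.07 (SE 0.60, adjusted p = 0.000828). When genes below the minimum mean were kept, its adjusted p was 0.0024 in crypts and 0.000521 on day 1.

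*Foxa2* (ENSMUSG00000037025.11, chromosome 2, 148042877 to 148046969) kept more of its WT level than any other factor of the set at each time point. In crypts, it was 70.0, 71.3 and 100.1 in WT against 50.9, 31.4 and 14.2, where the groups did not overlap but the highest library labelled null came within 1.38 times of the lowest WT library. The means of 80.5 ± 17.1 and 32.2 ± 18.3 (SD, n = 3) gave a log2 difference of -1.45 (SE 0.47) that was not called (adjusted p = 0.154, with a range of 0.0922 to 0.307 over 15 alternatives). On day 1, WT libraries lay at 188, 208 and 189 against 30.3, 32.2 and 26.5, which left 15.2% of the WT mean (log2 difference -2.68, SE 0.18, adjusted p = 7.48e-05). On day 3, 252, 275 and 292 stood against 84.2, 44.7 and 76.4, which left 25.1% (log2 difference -2.03, SE 0.24, adjusted p = 0.00028).

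**Figure D2:**
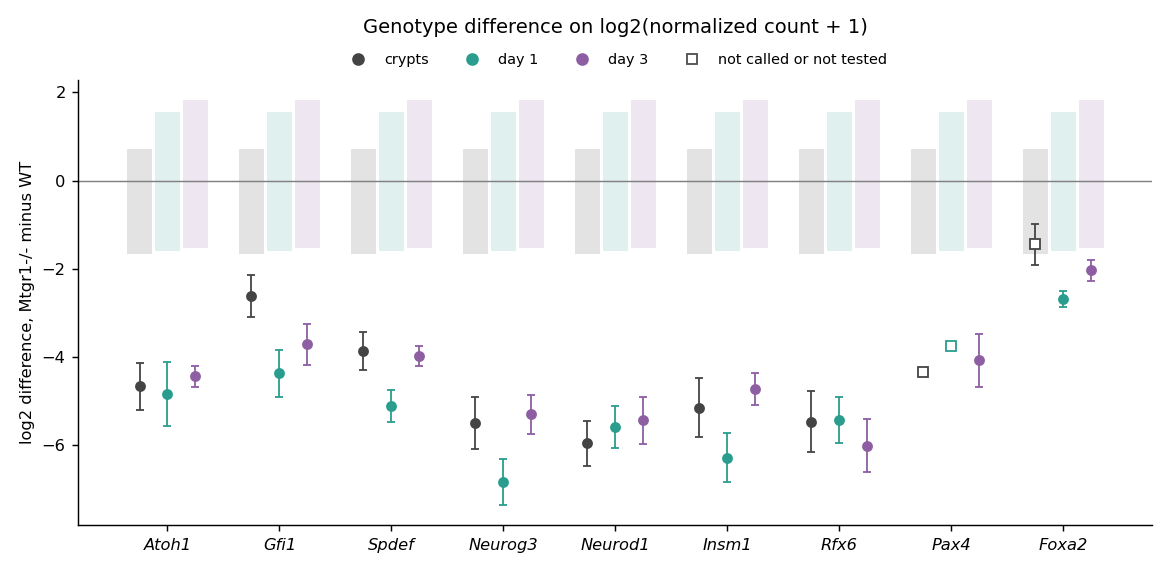
Log2 difference (libraries labelled null minus WT, on log2(normalized count + 1)) of each factor in crypts, on day 1 and on day 3, with bars of 1 SE and shaded 5th to 95th percentiles of all genes tested at that time. Open squares were not called (*Foxa2* in crypts) or not tested (*Pax4* in crypts and on day 1), and every point but *Foxa2* in crypts lies below its shaded range.

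Whether the genotype difference itself changed with culture was tested over all 18 libraries in 8 factors, since *Pax4* was under the minimum mean. Between crypts and day 1, 1 of 8 was called, against 41.4% of all 12145 genes tested. That factor was *Foxa2*, whose difference was larger on day 1 by -1.23 (SE 0.48, adjusted p = 0.0491). Its call did not survive the mouse number as a block (adjusted p = 0.0926), the inclusion of low genes (0.0628) or the loss of any 1 WT mouse (0.0739 to 0.176) or of null mouse 1 (0.162) or 2 (0.0555). *Gfi1*, *Spdef*, *Neurog3* and *Insm1* had changes of -1.76 (SE 0.77), -1.25 (SE 0.56), -1.33 (SE 0.79) and -1.13 (SE 0.82) in the same direction with adjusted p between 0.0769 and 0.285, and *Spdef*, *Neurog3* and *Insm1* were called with a pseudocount of 8. For *Atoh1*, *Neurod1* and *Rfx6*, the changes were -0.17 (SE 0.88), 0.37 (SE 0.69) and 0.036 (SE 0.88), and a p that misses the threshold does not show that these differences were equal. The changes of *Atoh1* and *Rfx6* switched sign under some alternatives. Between crypts and day 3, none of the 8 was called, against 31.6% of all genes, and between day 1 and day 3 none, against 0.0329%. At an unadjusted p below 0.05, 3 of 8 passed between crypts and day 1 (*Gfi1*, *Spdef* and *Foxa2*), and none in the other 2 contrasts. From day 1 to day 3, *Spdef*, *Neurog3* and *Insm1* had differences smaller by 1.13, 1.53 and 1.56 (adjusted p = 0.703 to 0.727). These contrasts share libraries, and their values are given side by side only.

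How much was left varied between the mice labelled null. Mouse 1 was the strict lowest of its group in 14 of 27 values (9 factors at 3 time points), mouse 2 in 3 and mouse 3 in 4. In mouse 1, *Atoh1* was 3.77 in crypts and 2.33 on day 1, and *Neurog3*, *Neurod1* and *Insm1* had no read at either time. The same mouse held the highest *Foxa2* of its group in crypts (50.9) and on day 3 (84.2). Summed over the 9 factors, libraries labelled null held 81 to 120 reads in crypts, 39 to 104 on day 1 and 104 to 132 on day 3, against 1078 to 1271, 1951 to 2064 and 1758 to 1892 in WT. By Xist, mouse 1 of those labelled null and mouse 3 of WT were female and the others male at each time point, and a fit with sex as a term gave the same counts of factors called.

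**Figure D3:**
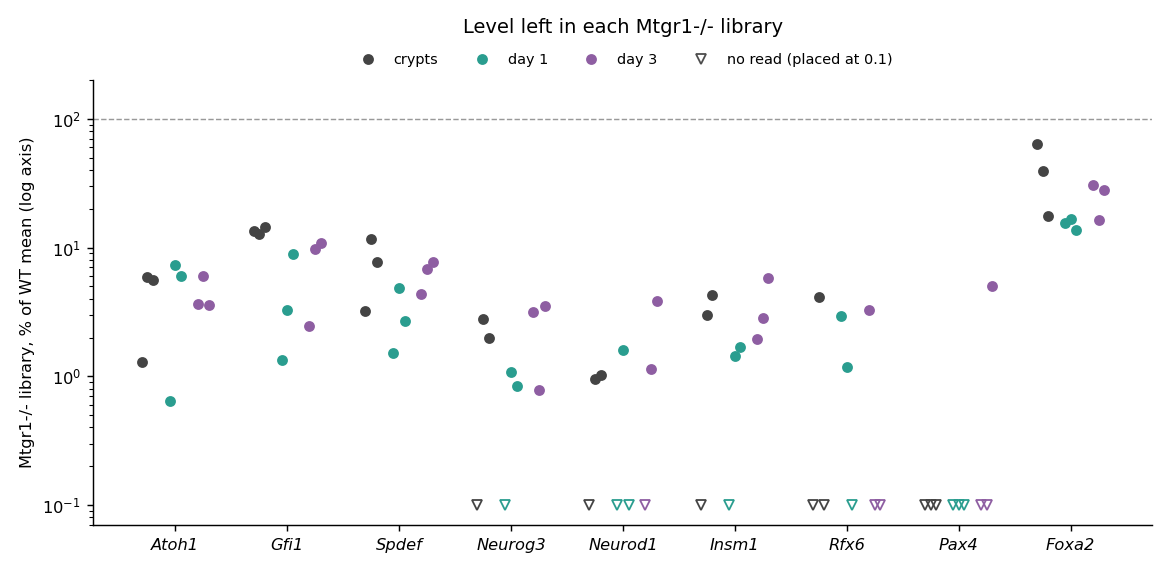
Each library labelled null as a percent of the WT mean of its time point (log axis), for the 9 factors in crypts, on day 1 and on day 3, with open triangles at 0.1 for libraries without a read. *Foxa2* lies highest and *Pax4* has a single library with a read, and the dashed line marks the WT mean.

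Levels of different genes were compared as CPM per kb of exon, since the 3 tables were normalized separately. In WT crypts, the order of mean levels was *Spdef* (6.03), *Atoh1* (5.38), *Neurog3* (2.39), *Gfi1* (1.47), *Neurod1* (1.43), *Foxa2* (1.33), *Insm1* (1.21), *Rfx6* (0.682) and *Pax4* (0.526). Only 2 neighbours in this order had ranges apart, *Atoh1* over *Neurog3* and *Insm1* over *Rfx6*. On day 1 the order was *Spdef* (11.1), *Atoh1* (7.24), *Neurog3* (6.63), *Foxa2* (3.46), *Insm1* (2.67), *Gfi1* (1.15), *Neurod1* (0.914), *Rfx6* (0.842) and *Pax4* (0.392), where *Atoh1* and *Neurog3*, *Gfi1* and *Neurod1*, and *Neurod1* and *Rfx6* overlapped. On day 3, *Spdef* (6.63), *Neurog3* (6.34) and *Atoh1* (5.56) overlapped in turn, ahead of *Foxa2* (4.81), *Insm1* (2.35), *Neurod1* (1.34), *Gfi1* (1.21), *Rfx6* (1.09) and *Pax4* (0.642). *Neurod1*, *Gfi1* and *Rfx6* overlapped in turn on that day. In libraries labelled null the order was different at the top, with *Foxa2* highest at 0.557 in crypts, 0.424 on day 1 and 1.06 on day 3, ahead of *Spdef* (0.463 and 0.360) in crypts and on day 3 and of *Atoh1* (0.277) on day 1. *Foxa2* overlapped the next gene in range in crypts and on day 1 and lay above it on day 3.

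WT levels over time are given in CPM as a description. *Neurog3* was 4.01 ± 0.453 in crypts, 11.1 ± 2.22 on day 1 and 10.6 ± 1.403 on day 3 (SD, n = 3), and *Insm1* was 3.74, 8.27 and 7.30, so both days of culture lay above crypts in every mouse. *Foxa2* went from 3.16 ± 0.627 to 8.21 ± 0.782 and 11.4 ± 0.707, with no overlap at either step. *Spdef* and *Atoh1* were highest on day 1, at 25.6 and 15.4 between 13.9 and 11.4 in crypts and 15.3 and 11.8 on day 3, with day 1 above both other times in all mice. *Neurod1* was lowest on day 1 (2.49, against 3.90 and 3.66). *Rfx6* went from 2.73 in crypts to 4.37 on day 3 with ranges apart, day 1 overlapping both, and ranges for *Gfi1* and *Pax4* overlapped at all times. In libraries labelled null, *Gfi1* fell from 0.648 ± 0.0153 in crypts to 0.13 ± 0.108 on day 1 and 0.254 ± 0.149 on day 3, with both days below crypts without overlap. *Foxa2* went from 1.00 ± 0.171 on day 1 to 2.52 ± 0.893 on day 3, also without overlap. *Insm1* went from 0.0703 ± 0.0609 on day 1 to 0.224 ± 0.13 on day 3 without overlap, on 0 to 3 and 3 to 9 reads per library. *Atoh1* and *Spdef* ranges of these libraries overlapped at all times.

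**Figure D4:**
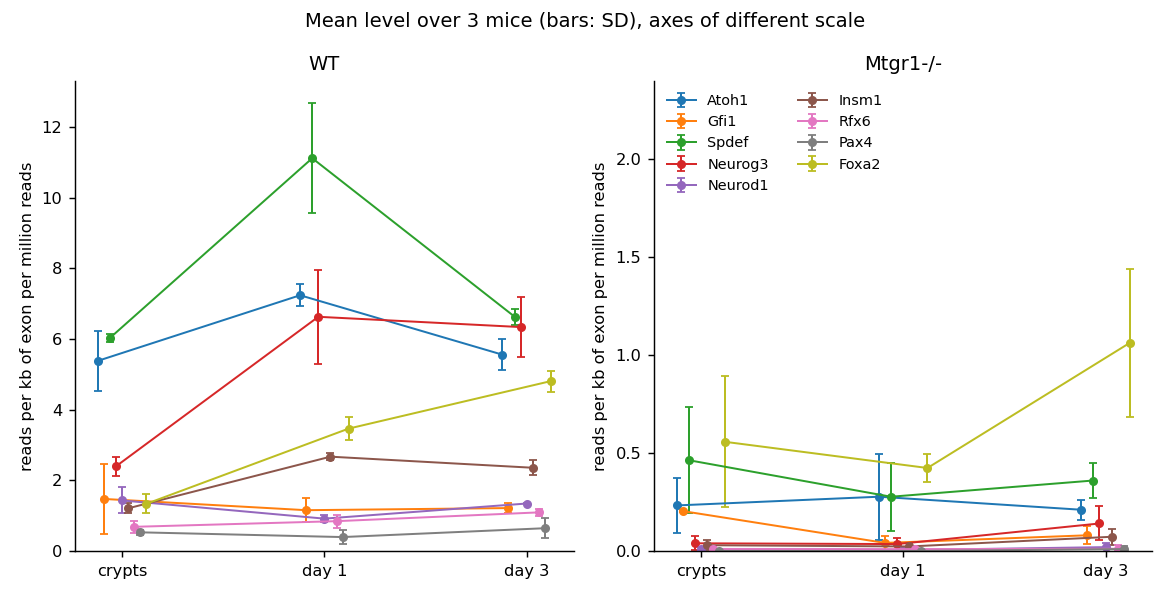
Mean level of each factor in CPM per kb of exon, by time point, in WT (left) and in libraries labelled null (right, on a smaller axis), with bars of 1 SD over 3 mice. *Spdef* peaks on day 1 in WT at 11.1, and *Foxa2* is the highest line on the right, at 1.06 on day 3.

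Ratios within a library do not depend on normalization and describe the makeup of the set, as far as the reads allow. *Foxa2* over *Atoh1*, per kb of exon, was 0.215 to 0.266 in WT crypts against 0.783 to 12.1 in crypts labelled null, 0.452 to 0.504 against 1.07 to 11.6 on day 1, and 0.804 to 0.922 against 2.37 to 7.36 on day 3, without overlap at any time. *Neurog3* over *Atoh1* was 0.388 to 0.533 in WT crypts against 0 to 0.211, and 0.829 to 1.07 against 0 to 0.136 on day 1. On day 3 this ratio overlapped, with 1.02 to 1.32 in WT against 0.149 in mouse 2 and 0.986 and 1.13 in mice 1 and 3. The ratio *Gfi1* over *Atoh1* was above the WT range in all 3 crypts labelled null (0.592 to 2.83, against 0.163 to 0.420) and overlapped in culture. *Spdef* over *Atoh1* was above WT in crypts (1.55 to 2.76, against 0.974 to 1.37) and on day 3 (1.35 to 2.56, against 1.14 to 1.295) but not on day 1. Several of these ratios rest on few *Atoh1* reads, with 4 in crypts and 2 on day 1 in null mouse 1. *Neurog3* had 0, 3 and 2 reads in null mice 1 to 3 in crypts, and 0, 3 and 2 on day 1. The ratio of 0 in null mouse 1 thus rests on almost no reads of either gene, and a change of *Neurog3* over *Atoh1* was not tested.

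The genes most like *Atoh1* over the 18 libraries were sought among 12145 genes by the root mean square difference of log2 values, each taken from the WT mean of its table. The 5 outside the set were *Agr2* (0.55), which folds mucins in goblet cells, *Rasd2* (0.58), *Tff3* (0.61), the goblet trefoil peptide, *Hpd* (0.63), an enzyme of tyrosine breakdown, and *Spink4* (0.64), a protease inhibitor of goblet cells. Within the set, *Spdef* was as near at 0.57 and *Foxa2* the farthest at 2.06. For *Neurog3*, the 5 were *Vwa5b2* (0.65), *Sfrp5* (0.70), a secreted Wnt antagonist, *Dach1* (0.75), *Chgb* (0.75), a granin of endocrine vesicles, and *Tac1* (0.76), the tachykinin precursor. *Insm1* was nearer than any of these, at 0.53, and *Gfi1* and *Foxa2* lay at 1.84 and 2.81. This measure describes likeness of pattern only.

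Among 20 other factors of enteroendocrine cells, 7 of 16 tested were called lower and 1 higher in crypts, 15 and 1 of 17 on day 1, and 14 and 1 of 16 on day 3, with medians of -1.21, -3.54 and -2.66. Beside them, 3.15%, 28.9% and 29.1% of all genes tested were called lower, and 1.58%, 30% and 29.9% higher. The count of these factors called lower in crypts was 0 without WT mouse 1 and 1 without WT mouse 2. The counts of day 1 and day 3 were the same with any library left out. *Nkx2-2*, an early endocrine homeodomain factor, was 61.2 ± 17.2 in WT crypts against 0.95 ± 1.65 (log2 difference -5.28, adjusted p = 0.0092), with -5.09 and -5.05 on day 1 and day 3. *Fev*, a factor of serotonin-producing cells, was at -4.87, -5.16 and -5.44 at the 3 times. *Isl1* was at -4.78, -3.64 and -3.71 and *Myt1* at -4.76, -4.98 and -4.97. On day 1 *Fev* had no read in libraries labelled null, against 114 in WT. The gene called higher was *Prox1* in crypts, from 31.3 ± 3.38 to 256 ± 113 (log2 difference 2.90, adjusted p = 0.00582), and in culture it was *Pdx1*, the duodenal identity factor (0.77 and 1.17). *Prox1* rose in crypts beside a tuft cell marker sum of 73.3 to 236 CPM in crypts labelled null, against 50.2 to 54.6 in WT, and their relation was not tested.

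Of 9 other goblet and Paneth factors, 2 were called lower in crypts by limma and edgeR and 3 by DESeq2. On day 1, 5 were lower and 3 higher (1 to 3 higher with a library left out), and on day 3, 5 lower and 2 higher (1 to 2), with medians of -0.43, -1.63 and -1.18 at the 3 times. Over all genes, 3.15%, 28.9% and 29.1% were called lower at the 3 times, and 30% and 29.9% higher on day 1 and day 3. *Creb3l4* and *Creb3l1*, membrane-bound factors of the secretory pathway, had log2 differences of -3.03 and -2.04 in crypts, -3.75 and -3.31 on day 1 and -2.63 and -2.22 on day 3. *Bhlha15*, which builds up secretory granules, fell in culture (-2.43 and -3.31). *Klf4*, a late goblet and enterocyte factor, rose by 1.16 (adjusted p = 0.0356) and 1.45 (adjusted p = 0.000173) in culture, with smaller rises of *Xbp1* (0.29 and 0.26) and of *Atf6* (0.45 on day 1), the stress factors of the endoplasmic reticulum. On the absorptive side, 0 of 10 factors were called in crypts by the main limma fit, edgeR or DESeq2, and 0 passed an unadjusted p of 0.05. Limma with array weights called 1 of them lower in crypts. On day 1, 6 were higher and 2 lower, where 30% of all genes were called higher and 28.9% lower. On day 3, 4 were higher and 2 lower, close to the shares of 29.9% and 29.1% over all genes. *Maf*, an enterocyte factor, rose by 2.01 and 1.97, *Prdm1* by 1.72 and 1.66 and *Hnf4g* by 1.14 and 0.98, while *Hes1*, the Notch target that represses *Atoh1*, fell (-0.94 and -0.84), as did *Cdx1* (-0.75 and -0.42). Of 6 genes of Notch ligands and their modifier, 1 of 5 tested was lower in crypts and 2 of 5 on day 1 (1 without WT mouse 1 or 2). On day 3, 4 of 6 were lower and 1 higher. The shares called lower over all genes were 3.15%, 28.9% and 29.1% at the 3 times, and 29.9% were called higher on day 3. *Dll4* fell at each time (-1.20, -3.45 and -2.79), although its call in crypts was lost on leaving out any library but WT mouse 3, *Mfng* in culture (-2.83 and -3.06) and *Dll3* on day 3 (-4.47), and *Jag1* rose by 0.34 on day 3.

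The products that mark the cells downstream were lower as well. Of 16 enteroendocrine products, 13 of 13 tested were lower in crypts (9 to 13 with a library left out), 12 of 13 on day 1 and 13 of 13 on day 3, with medians of -5.55, -5.41 and -5.12. *Gip*, the incretin of duodenal K cells, was 1796 ± 643 in WT crypts against 15.9 ± 4.85, with log2 differences of -6.72, -8.04 and -7.28 at the 3 times. *Sst*, or somatostatin, gave -6.58, -7.33 and -6.38, and *Ghrl*, or ghrelin, -5.69, -6.47 and -6.10. These were among the largest falls. The product not called on day 1 was *Sct*, or secretin, at -0.59 (limma adjusted p = 0.152), with -1.50 in crypts and -1.02 on day 3. Of 12 goblet products, 10 of 11 tested were lower in crypts and 10 of 10 on each day of culture. The goblet marker *Muc2* was not among the genes listed at any time and could not be assessed. Log2 differences at the 3 times were -5.45, -5.51 and -2.31 for *Ccl6* and -5.06, -5.33 and -4.63 for *Ccl9*. They were -5.05, -4.30 and -3.65 for *Tff3* and -4.39, -5.29 and -5.03 for *Spink4*. Paneth products gave 3 of 12 calls in crypts, 10 of 11 on day 1 with 1 higher, and 11 of 12 on day 3 with 1 higher. The calls in crypts were *Mptx1* and the ligands *Wnt3* and *Dll4*, and *Dll4* is also counted among the Notch ligands. *Lyz1*, *Mmp7*, *Itln1* and *Ang4* were not called there (limma adjusted p = 0.0734 to 0.0975). In crypts the median of the Paneth products was -4.36, and the summed level was 195, 1321 and 316 CPM in mice 1 to 3 labelled null, against 3638 to 4536 in WT. The sum includes *Guca2b*, which enterocytes also express and which was not called in crypts (limma adjusted p = 0.774). Its normalized count there was 5640 ± 2963 in WT and 4568 ± 2335 in libraries labelled null, so the sum overstates what was left of the other products. Mouse 2 stood apart from the other crypts labelled null, with a *Lyz1* (lysozyme) count of 15300 against 438 and 426. Without it, 9 of 12 were called lower in crypts, against 0 to 2 when any other single library was left out. At an unadjusted p of 0.05, 11 of the 12 were lower there. *Wnt3*, a niche ligand, fell at each time (-4.44, -6.23 and -4.49), with its call in crypts kept only where null mouse 2 was the library left out. *Guca2b* was the gene that rose in culture, by 1.86 and 1.97. Of the tuft cell markers, 1 of 8 was higher in crypts (*Gfi1b*, 2.62, adjusted p = 0.0404). By DESeq2, 6 were higher there, and by limma 4 without null mouse 2 and 0 when any other single library was left out. In culture, 4 of 6 and 5 of 6 were lower on day 1 and day 3 (*Pou2f3*, -1.32 and -1.66), and these counts were 1 and 3 without WT mouse 1 and 2 and 5 without WT mouse 2. For all these lists, the shares over all genes at the 3 times were 3.15%, 28.9% and 29.1% lower, and 1.58%, 30% and 29.9% higher. Whether lists differed from each other was not tested.

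**Figure D5:**
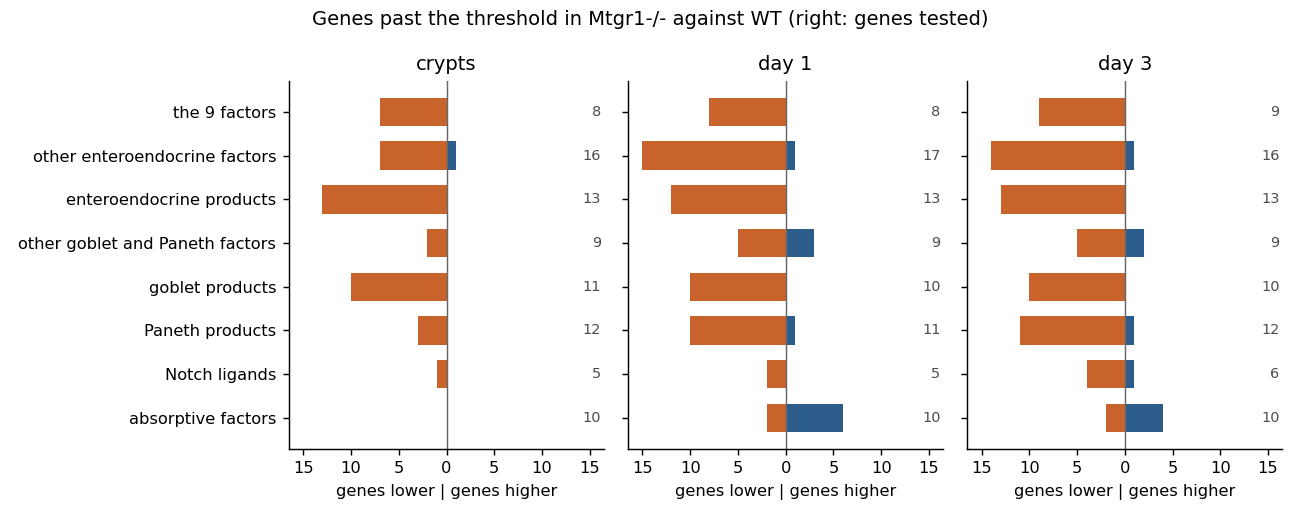
Number of genes of each list called lower (orange, left) or higher (blue, right) in libraries labelled null at each time point, with the number tested at the right edge. The 9 factors, the enteroendocrine products and the goblet products have calls to the left only. The absorptive factors have no call in crypts, 6 higher and 2 lower on day 1, and 4 higher and 2 lower on day 3. Of all genes tested, 1.58%, 30% and 29.9% were called higher at the 3 times, and 3.15%, 28.9% and 29.1% lower.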

How the data were processed

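Per the submitters' processing notes and the study's methods, the authors trimmed 50-base single reads from stranded mRNA libraries with fastp 0.20.0, quantified them with Salmon 1.3.0 against mouse GENCODE transcripts and compared genotypes with DESeq2 1.26.0. Their deposited signal is a linear count per gene divided by 1 factor per library, set separately for each time point. The tables also hold a mean over libraries and the authors' log2 fold changes, errors, Wald statistics and p-values, none of which were used, and 0 columns of other samples. All 18838 versioned gene IDs matched GENCODE M21, which gave GRCm38 positions and merged exon lengths.

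Genotypes were compared within each time point with limma 3.58.1 (R 4.3.3, trend, two-sided) on log2(normalized count + 1), with a minimum mean of 10, Benjamini-Hochberg adjustment over all genes tested and a threshold of 0.05. Changes between time points used all 18 libraries with the mouse as a blocking factor (correlation within mice -0.0048). In all 18 libraries, 100% of values were whole multiples of 1 step (tolerance 1e-04). The step lay near 1 in WT crypt mouse 2 (0.990) and in day 3 null mouse 2 (0.994). The multiples gave reads. These reads entered edgeR 4.0.16 and DESeq2 1.42.0 fits. The main limma fit, the edgeR and DESeq2 fits and the main fit of changes between time points were run on simulated data. The other alternative settings were not. A gene at the minimum rests on about 10 reads per library.

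The labels give each library a mouse number. WT and null libraries of the same number deviated together on day 1 (correlations 0.116, 0.231 and 0.216), where pairs of different numbers gave -0.19 to -0.0152. In crypts they did so in part (0.0764, 0.274 and 0.346), since WT mouse 1 with null mouse 2 gave 0.201. On day 3 they did not (-0.0067, -0.0023 and -0.016). Only on day 1 did every pair of the same number lie above every other pair, so the rule for pairing was met there. The fits reported are those without the block, and the blocked fit is an alternative that ended no call of the 9 factors within a time point. The 9 factors and all gene lists were chosen with earlier results of these data known. Named were all 9 factors, per other list up to 3 largest falls and 3 largest rises among called genes at any time point, and the 5 genes most like *Atoh1* and *Neurog3*. The Paneth markers *Lyz1*, *Mmp7*, *Itln1* and *Ang4*, and *Sct* as the enteroendocrine product not called on day 1, were named as well. Alternatives were other pseudocounts, no filter, median-ratio rescaling (minimum mean 100), the mouse number as a block, array weights, each library left out, both count tests and, chosen after seeing the data, sex (by Xist above 1000) as a covariate and the counts of the gene lists under array weights, the block and each library left out.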

Additional observations from a re-analysis of the deposited data

Results flagged for a closer look

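*Foxa2* was the 1 of 8 factors past the threshold in the test of whether the genotype difference changed between crypts and day 1, by a narrow margin. The log2 difference between libraries labelled null and WT went from -1.45 in crypts to -2.68 on day 1, a change of -1.23 (SE 0.48, adjusted p = 0.0491, limma over 18 libraries). WT libraries were 70.0 to 100.1 in crypts and 188 to 208 on day 1, and those labelled null 14.2 to 50.9 and 26.5 to 32.2. The change kept its sign in all 11 alternatives (-0.84 to -1.63), with adjusted p between 0.0128 and 0.176. The call was lost without the filter (0.0628), with mouse numbers blocked (0.0926) and on leaving out any mouse but null mouse 3. *Gfi1* (-1.76), *Neurog3* (-1.33) and *Spdef* (-1.25) had changes at least as large that were not called, so the change is not shown to be particular to *Foxa2*.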

How the results depend on the processing

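Factors called lower numbered 8 on day 1 (9 without the filter, with *Pax4*) and 9 on day 3 in all 15 alternatives. In crypts they ranged from 4 (without WT mouse 1, which lost *Gfi1*, *Insm1* and *Rfx6*) to 7 with a library left out and from 6 (pseudocount 0.1) to 8 (no filter) otherwise. All genes called in crypts rose from 614 to 1379 with DESeq2 and 2100 with array weights, and ranged from 175 to 605 with a library left out (312 without null mouse 1, 375 without null mouse 3, 175 and 213 without WT mouse 1 or 2). The number of factors with a changed genotype difference, 1 from crypts to day 1, was 0 without the filter, 4 with a pseudocount of 8, 0 with the replicate block and 0 to 2 with a mouse left out. It was 2 without null mouse 1 or 3 and 0 without WT mouse 1 or 2. From crypts to day 3 it was 0 to 1 (*Foxa2*, without null mouse 3) and from day 1 to day 3 0 to 2 with a mouse left out, 2 of them (*Spdef* and *Neurog3*) without null mouse 2. Over all genes, the change from crypts to day 1 gave 5025 calls (3333, without WT mouse 2, to 5549 with a mouse left out), to day 3 3834 (1657 to 3712, with 1700, 1657 and 2021 without WT mouse 1, 2 or 3), and from day 1 to day 3 4, with 16 at a pseudocount of 8, 0 under the replicate block and 0 to 879 with a mouse left out (879 without null mouse 2, 0 or 1 without any other). The cause of these shifts was not tested, apart from fewer libraries where one was left out. On the pairing, the replicate block gave 562, 8027 and 7289 calls over all genes in crypts, on day 1 and on day 3 (from 614, 7413 and 7545), and ended no call of the 9 factors within a time point. In the other lists it lost *Dll4* and *Wnt3* in crypts, where Paneth products called lower went from 3 to 1 and tuft markers called higher from 1 to 3, and raised absorptive factors called higher on day 1 from 6 to 7. With array weights, genes called lower in crypts went from 2 to 6 in other goblet and Paneth factors and from 3 to 11 in Paneth products. Other enteroendocrine factors called lower there went from 7 to 9, absorptive factors from 0 to 1 and tuft markers called higher from 1 to 8. The count of the 9 factors stayed at 7. No genotype difference of the 9 factors within a time point reversed. Changes between time points that were not called did: a pseudocount of 8 gave -0.16 for *Rfx6* from crypts to day 1, -0.71 for *Neurog3* and -0.38 for *Insm1* from crypts to day 3 and -0.34 for *Neurod1* from day 1 to day 3. With a mouse left out, the change from crypts to day 1 ranged from -0.39 to 0.17 for *Atoh1* and -0.71 to 0.65 for *Rfx6*. From crypts to day 3 it ranged from -0.30 to 0.64 for *Atoh1*, -0.38 to 0.19 for *Spdef*, -0.63 to 1.13 for *Neurog3* and -1.58 to 0.46 for *Rfx6*, and from day 1 to day 3 from -0.46 to 0.94 for *Atoh1* and -0.54 to 0.52 for *Neurod1*. Depth limits *Pax4*, *Neurod1* and *Rfx6*, which rest on 0 to 4 reads per group labelled null.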
